A study of Mus musculus with 30 samples.

Results

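The subject here is a small set of microRNA precursors that mark blood vessels: Mir143 and Mir145a of smooth muscle, and Mir126a and Mir126b of endothelium. They were taken by symbol from 5 tables of small RNA sequencing, 1 per organ, and make up 4 of the 2194 named features in each table. Brain, heart, kidney, liver and spleen came from the same 6 male mice, all 4 months old and without special treatment, of which 3 were deficient in Ftsj1 (labelled Ftsj1_DF) and 3 were wild type (labelled WT). Each organ gave 6 libraries, 30 in all, made from whole tissue. The mice belong to 2 sets of brothers, and each set holds equal numbers of both genotypes, 2 and 2 in the larger and 1 and 1 in the smaller. The sources used here name neither strain nor allele, and each value belongs to a whole organ, in which fewer vessel cells and less microRNA per cell cannot be told apart. Ftsj1 encodes a methyltransferase that acts on tRNA. It is not counted in small RNA tables, which leaves the genotype labels without a check.

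A microRNA is cut from a hairpin in its primary transcript, and 1 arm of the hairpin is loaded into Argonaute, where bases 2 to 8, the seed, choose the target mRNAs. miR-143 and miR-145 are cut from a shared transcript that serum response factor and myocardin drive in smooth muscle and pericytes, and they are known for holding these cells in the contractile state. miR-126 lies in the gene for the endothelial protein EGFL7 and is known for sustaining VEGF signalling and vessel integrity by repressing Spred1 and Pik3r2. Every organ holds vessels, and smooth muscle also lies in organ capsules and other structures.

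Mir126a and Mir126b lie on chromosome 2 within Egfl7, and 8 of the 9 Egfl7 transcripts that span them carry the site in an intron (the other is a retained intron). Sequences were matched for Mir126a and Mir126b, 2 of the 4 members, and are shown because the pair occupies the same stretch of DNA on opposite strands. They are RefSeq entries of build GRCm38.p6, written 5′ to 3′, with the listed mature arms in capitals in the hairpins and the seed in capitals in the mature forms.
Mir126a hairpin, plus strand: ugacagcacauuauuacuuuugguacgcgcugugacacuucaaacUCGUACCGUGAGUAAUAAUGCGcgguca
Mir126b hairpin, minus strand: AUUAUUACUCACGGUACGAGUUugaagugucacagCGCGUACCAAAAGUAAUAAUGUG
miR-126a-3p: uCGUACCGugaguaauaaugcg
miR-126b-5p: aUUAUUACucacgguacgaguu
miR-126b-3p: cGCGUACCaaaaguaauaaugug

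The 58 bases of the Mir126b hairpin are the exact reverse complement of bases 7 to 64 of the 73 bases of the Mir126a hairpin. The miR-126a-3p arm, 22 bases long, has 19 of them inside the interval annotated as Mir126b. The 3 listed mature forms have different seeds. None of the 3 seeds occurs in any other of the 1738 mature microRNAs of the RefSeq table. For Mir126a the RefSeq entries hold miR-126a-3p only, so the opposite arm of its hairpin was not compared. Counts of Mir126a are given per precursor and do not separate its arms.

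Mir126b was listed at 0 in all 5 organs in the authors' deposited tables, while Mir126a, on the opposite strand, had mean normalized counts from 105722 in brain to 608110 in kidney. The tables hold 20 pairs of hairpins that overlap on opposite strands. In 16 of them 1 partner was listed at 0 in every organ, in 3 pairs both were, and in 1 pair neither was. The pattern was not particular to Mir126b. A listing at 0 in a single organ was also common over all features, since from 877 in liver to 1208 in spleen of 2194 were above 0. The share of features at 0 in all 5 organs, the measure used for the pairs, is not given here. Mir142, a defining microRNA of leukocytes, was listed at 0 in spleen in the authors' deposited table, where Mir142b on the other strand had a mean of 39411 normalized counts. Mir451a, a defining microRNA of red cells, was at 0 in all 5 tables as well. The sources used here do not say whether reads were counted by strand, so reads of Mir126a and Mir126b cannot be told apart. The 0 of Mir126b is therefore given as listed, with no limit on its level, and the results that follow concern Mir143, Mir145a and Mir126a.

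Marker lists were highest in the organs they belong to, though not each of their members. In the authors' deposited tables, Mir9-2 and Mir128-1 led a neuronal list that made up 21.0% of the brain total (at most 0.213% elsewhere), striated muscle microRNAs 11.6% in heart (at most 0.0332%), Mir122 26.2% in liver (at most 0.0588%), and leukocyte microRNAs 1.47% in spleen (at most 0.184%). The tubule list was the least specific, at 24.2% in kidney and 14.6% in liver, with only 3 of its 7 members highest in kidney. Mean normalized counts summed to between 8511372 in heart and 21787131 in kidney. The tables give fold changes without naming the genotype in the numerator, so the 2 genotypes are called the numerator group and the denominator group. A sign can be set beside that of another organ only if both tables have the same numerator. The labels put 3 libraries in batch 2, all wild type, 1 each from heart, kidney and liver, and since no column holds values per library, no within-batch value could be had. The size factors that scale the libraries to a common depth were recovered from the lowest means, and in liver they did not overlap between the groups, at 0.50 to 0.729 in the numerator group and 1.45 to 2.15 in the denominator group. In the other organs they overlapped.

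Mir143 and Mir145a lie next to each other on chromosome 18 in RefSeq with 0 genes between them, both within Carmn, the long noncoding RNA gene known as the host of this cluster. Mir143, which promotes the contractile state, was among the most abundant features in every organ. Its mean in the authors' deposited tables, in counts divided by size factors, was 4606919 in kidney, 2722546 in spleen, 1626126 in heart, 1064231 in liver and 519012 in brain. It ranked at place 1 of all features in heart, kidney and spleen, at place 4 in liver and at place 8 in brain. As a share of the organ's summed means, a level that can be set beside that of other organs, Mir143 made up 25.4% in spleen, 21.1% in kidney, 19.1% in heart, 5.62% in liver and 3.22% in brain. The error used for these shares is the SD between libraries of a genotype that the deposited standard error (SE) of the fold change implies, on the log2 scale. Spleen and kidney differed by log2 0.26 and kidney and heart by 0.15, within combined SDs of 0.66 and 0.60. Heart and liver differed by log2 1.77 and liver and brain by 0.80, beyond combined SDs of 0.53 and 0.58. Spleen, kidney and heart thus formed an upper group in which neighbours lay within the spread, with liver and then brain below it. How far liver lay from either side depended on the scaling: with organs scaled by the median ratio of features in place of the total, heart and liver differed by log2 0.77 and liver and brain by 2.39. These are descriptions with no test, since each table was normalized on its own.

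Mir145a, the cluster partner that targets Klf4 and other genes of the synthetic smooth muscle state, had far fewer counts. The authors' deposited means were 43758 normalized counts in kidney, 38569 in heart, 37894 in spleen, 12778 in liver and 7490 in brain. Its shares were 0.453% in heart, 0.353% in spleen, 0.201% in kidney, 0.0675% in liver and 0.0465% in brain, and its rank ran from place 38 in spleen to place 126 in brain. Heart and spleen differed by log2 0.36, within a combined SD of 0.38. Each further step down, to kidney, liver and brain, was larger than the spread, at log2 0.81, 1.57 and 0.54 against combined SDs of 0.46, 0.47 and 0.44. The highest share was 9.75 times the lowest. Under median ratio scaling that range was 14.7-fold, the steps from kidney to liver and from liver to brain were log2 0.84 and 2.13, spleen and kidney came within the spread (0.457 against a combined SD of 0.459), and heart and spleen moved beyond it (0.45 against 0.38). Without the most abundant feature in the total, liver and brain differed by log2 0.88.

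Mir126a, the endothelial member, took its highest share in heart. In the authors' deposited tables its means were 608110 normalized counts in kidney, 451809 in heart, 341701 in liver, 150781 in spleen and 105722 in brain. It made up 5.31% of the heart total, where it ranked at place 4, 2.79% in kidney, 1.80% in liver, 1.40% in spleen and 0.656% in brain, where it ranked at place 33. Heart stood above kidney by log2 0.93 against a combined SD of 0.57. Kidney and liver (log2 0.63, combined SD 0.64) and liver and spleen (log2 0.36, combined SD 0.47) differed by less than their spread. The latter call turned under median ratio scaling, where liver stood above spleen by log2 1.45. Brain was below spleen by log2 1.10, beyond a combined SD of 0.43. All 3 members were thus lowest in brain, the organ that was lowest for 58 of the 194 features with a mean of at least 100 in every organ. Under median ratio scaling kidney passed spleen for Mir143 and liver passed kidney for Mir126a, and brain stayed lowest for all 3.

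**Figure D1:**
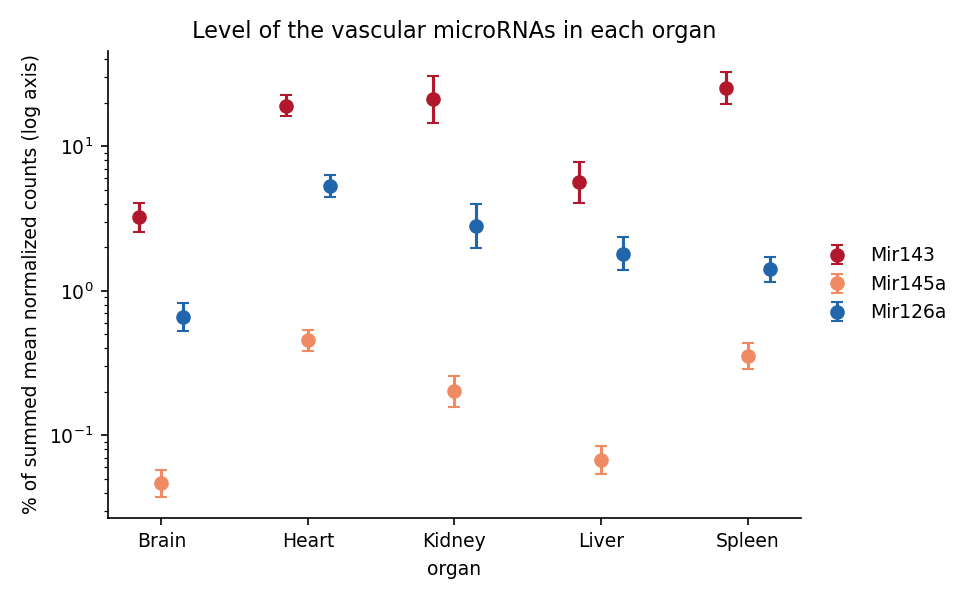
Level of Mir143, Mir145a and Mir126a in 5 organs as a percent of the organ's summed mean normalized counts, on a log axis. Points are means over the 6 libraries of an organ and bars span 1 implied SD between libraries of a genotype on the log2 scale. Mir143 lies above the others in every organ, and Mir126a is the only member with spleen below liver.

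The endothelial and smooth muscle members had different profiles across the organs. Mir126a equalled 32.1% of Mir143 in liver, 27.8% in heart, 20.4% in brain, 13.2% in kidney and 5.54% in spleen, a 5.80-fold range of ratios taken within each table and so free of the scaling between organs. Spleen was the highest organ for Mir143 and the second lowest for Mir126a. Together the 3 measured members made up 27.1% of all counts in spleen, against 24.9% in heart and 24.1% in kidney, and 7.49% in liver and 3.92% in brain. Mir143 alone gave between 75.0% of that sum, in liver, and 93.5%, in spleen.

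Mir143 and Mir145a share a transcript, and the ratio of their counts, over both genotypes and with no error available, varied between organs. Counts of Mir145a came to 2.37% of those of Mir143 in heart, 1.44% in brain, 1.39% in spleen, 1.20% in liver and 0.950% in kidney, a 2.50-fold range. Mir143 counts thus exceeded those of Mir145a 42.2-fold in heart and 105-fold in kidney. The levels are reads per precursor, with no length scale applied. A ratio between 2 microRNAs is a ratio of reads, and how evenly their molecules were turned into reads was not tested. The ratio was also compared between the genotypes, using group means derived from the deposited mean and fold change. In brain Mir145a equalled 1.44% of Mir143 in the numerator group and 1.45% in the denominator group, and in heart 2.38% and 2.36%. In kidney it was 0.737% and 1.28%, a ratio 1.74-fold lower in the numerator group. Liver gave 1.08% and 1.31%, and spleen 1.58% and 1.26%. The ratio was therefore nearly the same in both genotypes in brain and heart and differed most in kidney. In the denominator group heart stood at 2.36% and the other organs between 1.26% and 1.45%. In the numerator group the values ran from 0.737% in kidney to 2.38% in heart. Both microRNAs were read in the same libraries, so no error could be put on a difference of their fold changes, and these ratios carry no test.

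**Figure D2:**
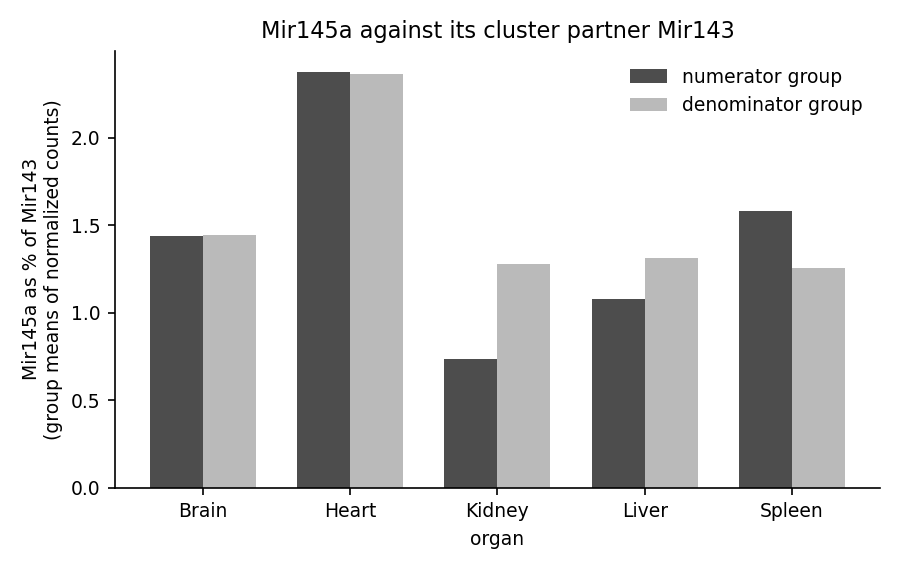
Mir145a as a percent of Mir143 in each organ, from the group means of normalized counts in the 2 genotypes (dark, numerator group; light, denominator group; 3 libraries each, with no error available for the ratio). The bars nearly coincide in brain and heart, and in kidney they stand at 0.737% and 1.28%.

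The genotype contrast asked whether loss of Ftsj1 alters these microRNAs. None of the 3 measured members passed an adjusted p of 0.05 in any organ with DESeq2 in the authors' deposited tables, and 0 of the 15 contrasts had an unadjusted p under 0.05. The share of all tested features that passed was 1.13% in heart, 0.229% in liver and 0% in each of brain, kidney and spleen. At an unadjusted p under 0.05 it was 5.33% in heart, 4.5% in kidney, 3.9% in liver, 3.48% in spleen and 2.23% in brain. The members' adjusted p ran from 0.958 to 0.996, and their unadjusted p from 0.101 to 0.977. Of the 15 fold changes as deposited, 9 were positive and 6 negative. The largest had an absolute log2 value of 0.68.

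Mir143 had positive fold changes in brain, heart and kidney and negative ones in liver and spleen. The sign in liver turned to positive (log2 0.088) when fold changes were centred on the abundance-weighted mean of features. In kidney the group means were 5602545 normalized counts in the numerator group and 3611294 in the denominator group, derived from the authors' deposited table, which gives a log2 fold change of 0.63 (SE 0.45, DESeq2 adjusted p 0.975). This is 1.55-fold, with a 95% interval from 0.847 to 2.84. In spleen the deposited sign was the opposite, with group means of 2280386 and 3164706 and a log2 fold change of -0.47 (SE 0.30, DESeq2 adjusted p 0.988) in the authors' deposited table. The interval of that fold ran from 0.480 to 1.08. Both intervals include no change.

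The other organs gave smaller values for Mir143. Brain stood at log2 0.14 (SE 0.27), heart at 0.07 (SE 0.19) and liver at -0.10 (SE 0.39) in the authors' deposited tables. Group means in heart were 1663810 and 1588442 normalized counts, the closest of the 5 organs. Heart was also the most precise, with a 95% interval on the fold from 0.805 to 1.36. It leaves out a numerator group above 1.36-fold or below 0.805-fold of the denominator group, whichever genotype that is. In kidney the interval reached 2.84-fold.

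Mir145a had positive values in brain and heart and negative ones in kidney, liver and spleen. Its largest difference was in liver, where the group means were 11114 and 14441 normalized counts and the log2 fold change was -0.38 (SE 0.26, DESeq2 adjusted p 0.991) in the authors' deposited table. That fold of 0.770 had a 95% interval from 0.543 to 1.09. Liver is the organ in which size factors did not overlap between the groups, and the part of depth in this value was not tested. In kidney, where Mir143 stood at log2 0.63, Mir145a was at -0.16 (SE 0.29) in the authors' deposited table, with group means of 41293 and 46223. The remaining log2 fold changes in the authors' deposited tables were 0.14 (SE 0.25) in brain, 0.08 (SE 0.19) in heart and -0.14 (SE 0.24) in spleen. Brain and heart values of Mir145a thus lay close to those of Mir143, at 0.14 and 0.07.

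Mir126a had the largest difference of the set, again in kidney. Group means there were 748510 and 467710 normalized counts, and the log2 fold change was 0.68 (SE 0.41, DESeq2 adjusted p 0.975) in the authors' deposited table. The fold of 1.60 had a 95% interval from 0.912 to 2.81. Mir126a and Mir143 differed between the groups by nearly the same factor in kidney, so that Mir126a equalled 13.4% of Mir143 in the numerator group and 13.0% in the denominator group. Elsewhere the differences of the endothelial member were small beside their SE. The authors' deposited tables give log2 fold changes of 0.12 (SE 0.21) in heart, 0.11 (SE 0.31) in liver, 0.01 (SE 0.23) in spleen and -0.01 (SE 0.26) in brain, where the sign turned to positive (0.19) under centring on the abundance-weighted mean. In spleen the group means were 151122 and 150440 normalized counts, and the interval on the fold ran from 0.735 to 1.37.

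**Figure D3:**
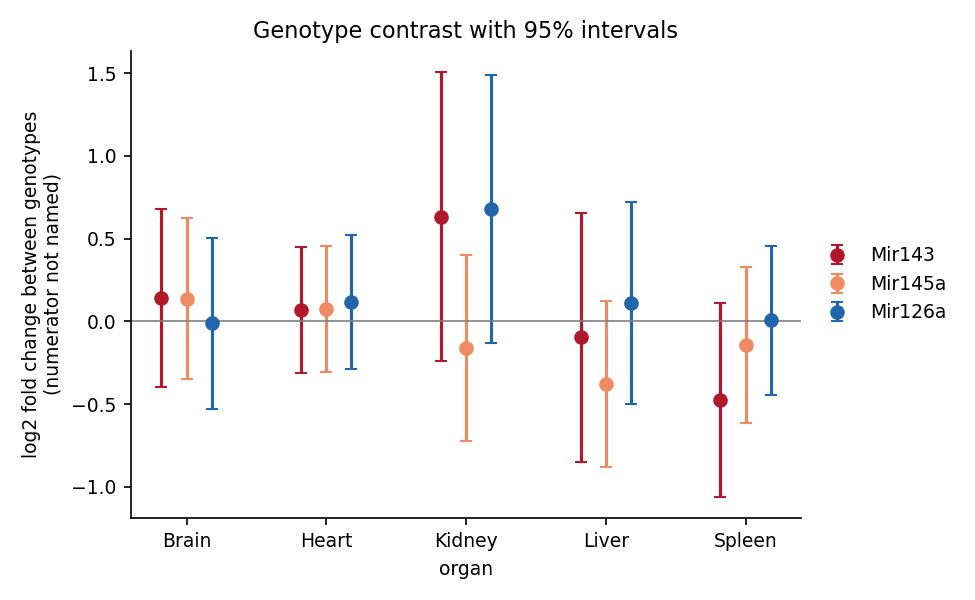
Log2 fold change between the genotypes for Mir143, Mir145a and Mir126a in each organ, with 95% intervals from the deposited SE; the genotype in the numerator is not named. All 15 intervals cross 0, and the widest belong to Mir143 and Mir126a in kidney.

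The spread between libraries behind these contrasts differed among the members. From the deposited SEs, the implied coefficient of variation between libraries of a genotype was 16.5% for Mir143 in heart, 23.2% in brain, 25.4% in spleen, 32.7% in liver and 37.8% in kidney. For Mir145a it lay between 16.5% in heart and 24.4% in kidney, and for Mir126a between 17.6% in heart and 35.2% in kidney. Mir145a, the least abundant of the 3, had a SE below the median of features with a mean of at least 100 in all 5 organs, Mir126a in 4 and Mir143 in 3. In kidney 98.9% of such features had a larger SE than Mir145a, against 35.1% for Mir143. The counts of these members are high, so counting error adds little, and with 3 libraries per genotype the spread between libraries sets what could be detected.

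The contrast was then compared between organs. For each member and each of the 10 pairs of organs, the difference of the deposited log2 fold changes was divided by its combined SE and adjusted over all features of the pair, from 734 to 959. None of the 30 differences passed an adjusted p of 0.05 by this z-test, and 1 had an unadjusted p under 0.05. Over all features and pairs, 0.0119% passed the adjusted and 2.73% the unadjusted threshold, and the pair with the most adjusted calls, kidney and liver, had 0.134%. The single one was Mir143 between kidney and spleen, where the log2 fold changes of 0.63 and -0.47 differ by 1.11 (SE 0.54, adjusted p 0.996), with a 95% interval from 0.05 to 2.16. It rests on both tables having the same numerator, which is not known: with 1 of the tables turned, the difference would be 0.16 in size (adjusted p 0.989). With 1 table of each pair turned, an alternative added after the data were seen, 0 of the 30 differences had an unadjusted p under 0.05. No share over all features is given for this setting. For Mir143, heart minus kidney was log2 -0.57, with an interval from -1.52 to 0.39. For Mir126a the differences between kidney and the other organs were log2 0.57 against liver (interval -0.45 to 1.59), 0.67 against spleen (interval -0.26 to 1.60) and, as heart or brain minus kidney, -0.56 (interval -1.47 to 0.35) and -0.69 (interval -1.65 to 0.27). For Mir145a brain minus liver was log2 0.52 (interval -0.19 to 1.22), the largest as deposited, while kidney and liver would differ by 0.54 in size with 1 table turned. The test takes organs as independent although the same mice gave all 5. With an assumed correlation of 0.5 between the errors of a pair, the adjusted p of Mir143 between kidney and spleen was 0.166.

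Other microRNAs with known roles in the vessel wall were examined as 2 lists. Of 16 smooth muscle microRNAs, which include Mir21a, Mir221, Mir222 and the Mir125 precursors, 0 passed in any organ with DESeq2 in the authors' deposited tables, and 7 of 67 contrasts (10.4%) had an unadjusted p under 0.05, beside 3.89% of all features over the 5 organs. Contrasts of this and the other lists are counted where an adjusted p was given. The 3.89% is taken over all features with an unadjusted p, a slightly wider base. All 7 belong to Mir125a, Mir125b-1 and Mir125b-2, precursors of the related miR-125a and miR-125b, and all 7 were negative as deposited, in brain, heart, kidney and liver. Mir125b-1 and Mir125b-2 are both precursors of miR-125b, and how reads that match both were counted is not known. Their contrasts are therefore not independent. The authors' deposited table for spleen lists positive log2 values for Mir125a, Mir125b-1 and Mir125b-2, at 0.39, 0.21 and 0.23, none with an unadjusted p under 0.05. Among the abundant members, Mir21a, which promotes smooth muscle growth, made up 19.5% of the liver and 19.5% of the spleen total. Its log2 fold changes were 0.09 (SE 0.34) in liver, 0.10 (SE 0.23) in spleen and 0.31 (SE 0.43) in kidney in the authors' deposited tables. Median log2 fold changes of the list ran from -0.20 in heart, where the median of all features was 0.16, to 0.20 in kidney, where it was 0.04.

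Of 26 matched endothelial microRNAs, among them members of the Mir17 and Mir23a clusters, 0 passed in any organ with DESeq2 in the authors' deposited tables, and 5 of 124 contrasts (4.03%) had an unadjusted p under 0.05, a share near the 3.89% of all features. These were Mir19b-1 in heart and spleen, Mir132 in spleen, Mir130a in brain and Mir296 in liver. Mir27b, known for a role in vessel sprouting, was among the 2 most abundant of the list in brain, heart, liver and spleen. Its log2 fold changes there were -0.01 (SE 0.24), 0.16 (SE 0.20), -0.02 (SE 0.28) and -0.10 (SE 0.20) in the authors' deposited tables. Mir10a and Mir10b, the most abundant of the list in kidney at 6.38% and 4.36% of the total, had log2 fold changes of 0.22 and 0.21 (SE 0.31 for both) there in the authors' deposited table. Medians of this list ran from -0.10 in heart to 0.06 in brain, beside 0.16 and -0.01 over all features.

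MicroRNAs of blood cells and stroma were read in every organ. Mir144 of red cells ranged from 1149 normalized counts in brain to 19418 in heart in the authors' deposited tables, while Mir451a was at 0 in all 5. Stromal microRNAs of the Mir199, Mir214, Mir21a and Mir29 precursors made up between 3.78% in brain and 21.6% in spleen. Mir21a alone was 19.5% of the spleen total, so the list total does not stand for its members. Of its 9 members, 4 were highest in brain, 3 in heart and 1 each in kidney and spleen. In the red cell, leukocyte, fibroblast, neuronal, hepatocyte, tubule and striated muscle lists, 0 members passed in any organ with DESeq2 in the authors' deposited tables, and 1 had an unadjusted p under 0.05, Mir150 of the leukocyte list in heart. That is 1 of 15 contrasts of the leukocyte list (6.67%), beside 3.89% of all features over the 5 organs and 5.33% in heart. The fibroblast, tubule, neuronal and striated muscle lists had 0 of 45, 35, 34 and 30 contrasts. The hepatocyte and red cell lists had 0 of 5 each. The part of blood and stroma in the level of the vascular members was not tested.

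The features most like each member across the organs were found from the log2 share in 5 organs after the mean over organs was subtracted, by the root mean square difference among 193 others with a mean of at least 100 in every organ. Mir143 was most like Mir503 (0.20), Mir450b (0.37) and Mir450-2 (0.37), against a median of 1.57 over all 193. Mir503 was far less abundant, from 0.000678% in brain to 0.00449% in kidney. Mir145a itself stood at place 5 from Mir143 (0.43), and Mir126a at place 35 (0.91). Mir145a was most like Mir27a (0.30), Mir450b (0.32) and Mir224 (0.36). Mir126a had no feature as close, with Mir322 at 0.54, Mir574 at 0.60 and Mir30c-1 at 0.62. These are descriptions over 5 points that share libraries and normalization within each table.

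**Figure D4:**
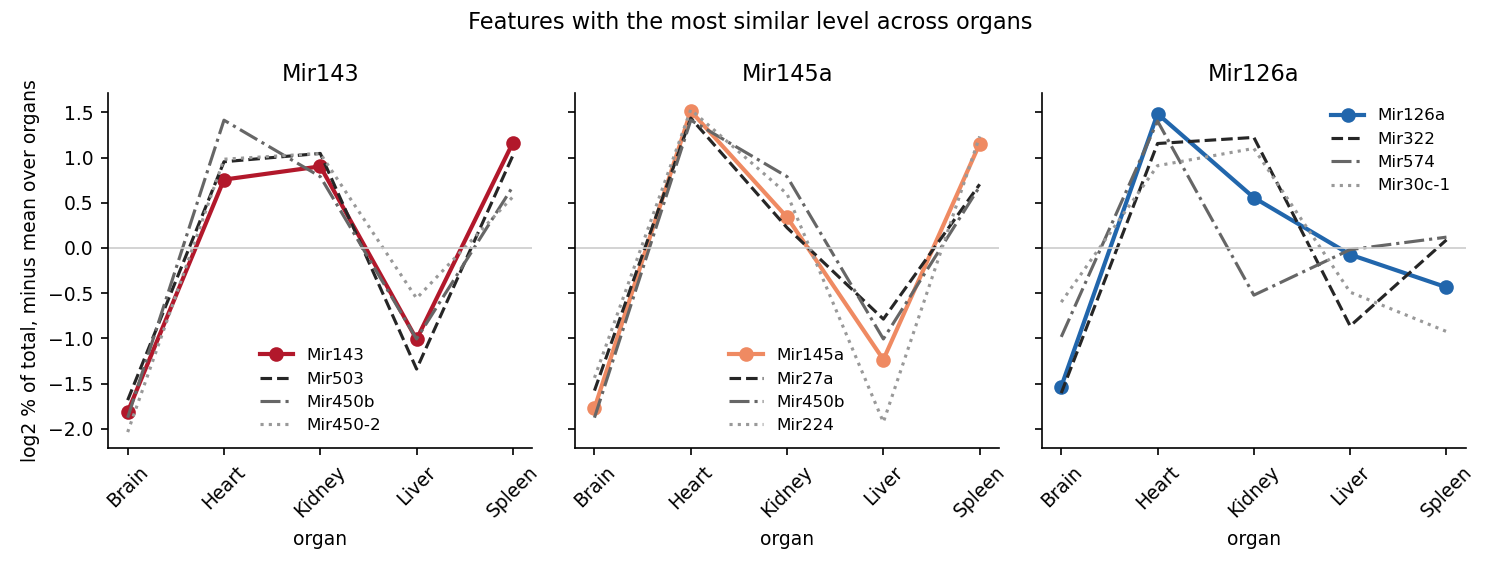
Log2 percent of the organ total minus its mean over the 5 organs, for each member (thick line with points) and the 3 features most like it (broken grey lines). Mir503 follows Mir143 within 0.20 on average, while the nearest to Mir126a, Mir322, differs by 0.54.

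Mir145b, a separate precursor that bears the miR-145 name, lies elsewhere on chromosome 18 with 138 genes between it and Mir145a. It was hardly read. Whole reads per library could be recovered from its low means, which gave 20 in spleen, 4 each in kidney and liver, 2 in heart and 0 in brain over all 6 libraries. Both heart reads came from 1 library of the denominator group. In kidney the reads were 3 in a library of the numerator group and 1 in the denominator group, and in liver likewise 3 and 1. In spleen the libraries of the denominator group held 7, 7 and 1 reads and those of the numerator group 5, 0 and 0, so the groups overlapped. Its log2 fold change in spleen was -1.73 (SE 2.21, DESeq2 adjusted p 0.988) in the authors' deposited table, and these counts cannot show a difference.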

How the data were processed

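Small RNA libraries (NEXTflex kit) were made from phenol-extracted RNA of pulverised organs, per the labels' protocols. The submitters' processing notes list featureCounts, Subread 2.0.3, DESeq2 and the build GRCm39. The aligner, annotation, strand setting, handling of reads that match several features, and model formula: not given in the sources used here. RefSeq loci and sequences are of GRCm38.p6 and served for names, neighbours and sequences only.

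The deposited mean is a signal, counts divided by size factors and averaged over an organ's 6 libraries, per the file headers. Fold changes and their standard errors were deposited as log2 values, the Wald statistic is a score, and the p-value and adjusted p-value follow from it, per the file headers. No column holds values per library, and the only such values used were the size factors and the Mir145b reads recovered as given below. The 1 row without a name was left out (at most 1.82e-05% of a total).

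Computed here with Python 3.11.15, pandas 2.3.3 and scipy 1.17.1 were shares of the total, 95% intervals (1.96 standard errors), and group means, for which a fitted fold change is taken as the ratio of the group means. The implied SD between libraries is the standard error times the root of 3 over 2, which takes the fitted dispersion, shrunk across features, as the spread. Differences between organs were z-scores with Benjamini-Hochberg adjustment over all features of a pair. Whole reads were recovered at a relative tolerance of 1e-12 with 1 solution each, and 6 size factors explained all 227 to 355 means under 1 in each organ. The scripts were tested on simulated data. Replicates are separate mice. Precision is limited by 3 libraries per genotype.

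The members, lists and tests were chosen with earlier results of these data known. Named were the members, Mir145b, list members past the threshold, at most the 2 most abundant of a list in an organ, and the 3 features most like each member. The list members with an unadjusted p under 0.05, the antisense pairs, and Mir142 and Mir451a were named after their values were seen. Of the 9 lists, Mir142a, Mir146a, Mir18a, Mir486a, Mir486b and Mir92a-1 were matched to no feature and are not analysed here. Some microRNAs stand in more than 1 list, Mir10a, Mir21a, Mir155, Mir221, Mir222 and the Mir1a, Mir24 and Mir133a precursors among them.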

Additional observations from a re-analysis of the deposited data

How the results depend on the processing

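No call of a genotype test depended on the processing, since 0 of the 15 contrasts and 0 of the 30 differences between organs passed under any setting tried. Adjusted p for contrasts lay between 0.792 and 1.00 over all alternatives, and for differences between organs between 0.166 and 1.00. Adjustment over all features with a p or over those with a mean of at least 10 kept the direction and call of all 15 contrasts. Centring on the median of abundant features shifted fold changes by at most 0.02. Centring on their abundance-weighted mean subtracted -0.20 in brain, -0.19 in liver, -0.13 in spleen, -0.04 in heart and 0.18 in kidney, and reversed Mir126a in brain to 0.19 and Mir143 in liver to 0.088. That mean includes the members, so this setting is not independent of them. Mir143 was 25.4% of the spleen total at log2 -0.47 and 21.1% of the kidney total at 0.63. In liver Mir122 was 26.2% of the total at log2 -0.65. The heart minus liver difference of Mir126a, near 0, turned to -0.0038 with the median. The cause was not tested. Correlations of 0.5 and -0.5 between organs kept the 30 differences on their side of the threshold, as did turning 1 table of each pair. Levels relative to the mean over organs moved by less than the spread with a total over Mir and Mirlet features or a total without the most abundant feature, which in 3 organs is Mir143 itself. Median ratio scaling moved 6 of 15: in brain to -2.52 for Mir143, -2.48 for Mir145a and -2.24 for Mir126a, and in liver to -0.13, -0.35 and 0.81 (log2). No paired analysis was possible because the genotypes share no mouse and the tables hold no values per library, and for the same reason leaving out each replicate was not run.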
